A study of Komagataella phaffii with 102 samples.

Results

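The genes described here are 425 genes of the yeast Komagataella phaffii whose transcripts took a smaller share of the sequenced reads in methanol than at either of 2 glycerol time points. They were selected on the measured levels, out of 4961 genes that lie at least 50 kb from a contig end, in tables of 5116 genes. Levels were each gene's counts scaled to a library of 1000000 (CPM), on the scale log2(CPM + 1), averaged within each strain and condition and then over 10 strains. A gene was taken if the mean in methanol was at least log2 1 below the mean at 24 h glycerol and at least log2 1 below the mean at 48 h glycerol, and if both glycerol means lay within log2 1 of each other. Strain Y-48123 was left out of that choice, so its libraries are the ones in which the fall in methanol was tested. In the 10 strains that chose the genes, the fall itself is given as a description, with no test.

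The series held RNA-seq libraries of 11 strains without transgenes, with 38 in methanol, 36 at 24 h glycerol and 28 at 48 h glycerol. All cultures were started in the complex medium BMGY with 4% glycerol in 24-well plates. They were taken for RNA at 24 h, or were spun down and moved either to BMMY medium with 1.5% methanol or to fresh BMGY for a further 24 h, so both later conditions are 48 h old. The strains were Y-48123, the 4 strains that the study named Cluster 2 (YB-378, YB-4289, Y-7556 and YB-4290), Y-17741, X-33, GS115, Y-11430, and Y-12729 and Y-48124, which served as reference strains. GS115 is a histidine auxotroph made by mutagenesis of Y-11430, and X-33 and Y-48124 carry most of its mutations. The study lists Y-48124 as a culture-collection strain of X-33. The deposited genome annotation is that of Y-11430. The smallest group of a strain and condition was Y-48123 at 48 h glycerol with 1 library, and the largest was Y-11430 in methanol with 7. Whether replicate libraries came from separate cultures is not stated in the labels, so the p-values measure the spread between these libraries, which may be technical.

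K. phaffii is a methylotrophic yeast, which can grow on methanol as its only source of carbon and energy. Methanol is oxidised by alcohol oxidase in peroxisomes, and the genes of this pathway are strongly induced by methanol and held down by glycerol. Glycerol enters central metabolism directly and supports fast growth, so it is used to build up cells before the shift to methanol. The deposited files give each gene only an identifier, and 0 of these identifiers matched a RefSeq gene table of 5040 genes for strain GS115. No role is therefore given to any of the 425 genes, and no list of pathway genes was set against them.

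Library totals ranged from 70901 to 16336681 counts with a median of 3810597, and 6 libraries had fewer than 1000000 counts. CPM values are shares of a library. In methanol the 10 most abundant genes of a library took a median of 14.8% of its counts in the 10 strains, against 11.0% at 24 h and 11.7% at 48 h glycerol. On the CPM scale the median of all 4961 genes was lower in methanol, by 0.33 against 24 h and by 0.19 against 48 h glycerol on the log2 scale. With TMM scaling, which sets the bulk of genes level between libraries, these shifts were 0.01 against 24 h and -0.00061 against 48 h glycerol. The smaller of the 2 falls then had a median of 1.12 over the 425 genes and was at least 1 in 264 of them, and its lowest value was 0.68. On the deposited log2(TPM + 1) scale, where TPM is transcripts per 1000000 transcripts and adjusts for gene length, it was at least 1 in 422 of them. That scale keeps the shift of all genes: their median was lower in methanol by 0.36 against 24 h and by 0.24 against 48 h glycerol. In 4 groups 1 methanol library stood apart from the others, and these were X-33 replicate C, Y-12729 replicate B, Y-48124 replicate C and Y-48123 replicate C. The strain comparisons and the named genes that rest on them are given again without 5 libraries, which are these 4 and replicate D of Y-48124 at 48 h glycerol, listed with them from earlier results of these data. In the share of counts of the 425 genes that library, at 17.9%, lay beside replicate B at 18.2%, and replicate A was the lowest at 14.4%. In Y-12729 at 48 h glycerol replicate A was also the lowest, at 15.1% against 18.9% and 18.4%.

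The 425 genes lost a large part of their share of the transcripts in methanol. In the 10 strains they held 3.56% to 11.2% of a library's counts in methanol (median 5.91%, n = 34 libraries), against 15.4% to 21.2% at 24 h glycerol (median 19.8%, n = 33) and 13.9% to 20.5% at 48 h glycerol (median 17.9%, n = 27). No methanol library reached the lowest glycerol library. The median gene was lower in methanol by 1.70 against 24 h and by 1.52 against 48 h glycerol, in log2(CPM + 1). The smaller of the falls was below 1.5 in 257 genes, at least 2 in 44 and at least 3 in 10. The genes were not rare: the median level was 41.1 CPM in methanol, against 118 CPM at 24 h and 103 CPM at 48 h glycerol. In methanol 45 of them were below 10 CPM. Between the glycerol time points, 279 genes were higher at 24 h and 146 were higher at 48 h.

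**Figure D1:**
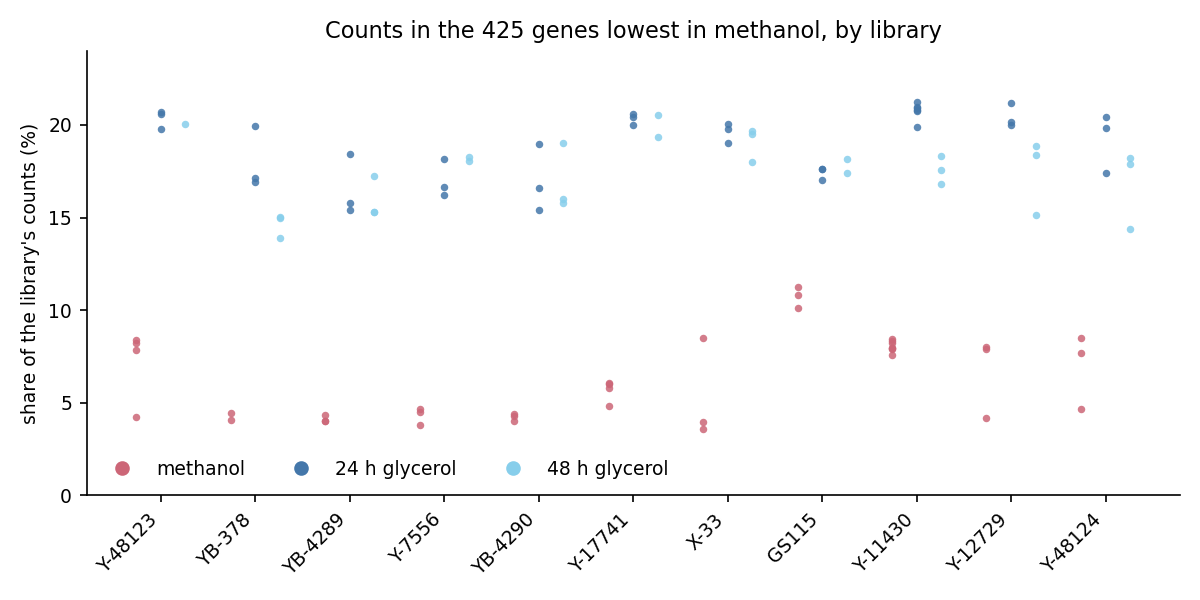
Share of each library's counts, in percent, that fell in the 425 genes, by strain, with 1 point per library and colours for methanol, 24 h glycerol and 48 h glycerol. Methanol libraries of the 10 strains that chose the genes lie between 3.56% and 11.2% and their glycerol libraries between 13.9% and 21.2%, and the GS115 methanol libraries are the highest in methanol at 10.1% to 11.2%.

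GQ67_03995 had the largest fall of all, by 3.89 on the log2(CPM + 1) scale, and lies on chromosome 3 at 1724190 to 1726525 on the + strand of the Y-11430 assembly. Over the 10 strains it ranged from 7.91 to 510 CPM in methanol with a median of 66.7 CPM, against 605 to 2693 CPM at 24 h glycerol (median 1595 CPM) and 363 to 3068 CPM at 48 h glycerol (median 1141 CPM). The GS115 libraries were the highest in methanol, with 491, 488 and 509.6 CPM. Next was GQ67_03471 on chromosome 3 at 800914 to 802932 on the - strand, lower by 3.76. It had 6.34 to 184 CPM in methanol (median 31.9 CPM), against 370.1 to 972 CPM at 24 h and 304 to 674 CPM at 48 h glycerol, so that its methanol and glycerol libraries did not overlap. The same held for GQ67_01111 on chromosome 2 (1972274 to 1974761, + strand), with 2.11 to 47.0 CPM in methanol, against 62.4 to 316 CPM at 24 h and 140.2 to 477 CPM at 48 h glycerol. Its fall was 3.22. Methanol and glycerol libraries of the 10 strains were fully apart for 30 of the 425 genes, against 0.685% of the 4961 genes, a contrast that the choice of genes itself used.

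The other members with falls above 3 were GQ67_01039, GQ67_00185, GQ67_05198, GQ67_04461, GQ67_02488, GQ67_02485 and GQ67_04563. GQ67_00185 was the most abundant of these, at a mean of 258 CPM in methanol, against 2532 CPM at 24 h and 2613 CPM at 48 h glycerol. GQ67_02485 and GQ67_02488 lie close together on chromosome 1, at 421119 to 422717 on the + strand and at 426451 to 427497 on the - strand. GQ67_02485 ranged from 26.1 to 395 CPM in methanol, against 464 to 1157 CPM at 24 h and 566 to 1435 CPM at 48 h glycerol, with no overlap. GQ67_02488 ranged more widely, from 9.90 to 523 CPM in methanol, against 108 to 1246 CPM at 24 h and 289.6 to 1573 CPM at 48 h glycerol, and its groups overlapped. All of the 10 genes with the largest falls were at least log2 1 lower in methanol than at both glycerol time points in 9 or 10 strains.

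The most abundant members fell less steeply. GQ67_03278, on chromosome 3 at 477708 to 479681 (+ strand), had 1382 to 12940.1 CPM in methanol (median 6492 CPM), against 9865 to 30345.9 CPM at 24 h and 10548 to 22556 CPM at 48 h glycerol. Its ranges overlapped slightly, and its smaller fall was 1.33. GQ67_00483 on chromosome 2 and GQ67_02555 on chromosome 1 had smaller falls of 1.32 and 1.38. GQ67_01556 on chromosome 1 was the highest of the 5 per unit length, with a mean of 4438 TPM in methanol, against 12942 TPM at 24 h and 11023 TPM at 48 h glycerol. GQ67_01178 on chromosome 2 stood out among abundant members with a fall of 2.46. It had 332 to 3236 CPM in methanol, against 2634 to 9339 CPM at 24 h and 4716 to 15418 CPM at 48 h glycerol. At 24 h glycerol 34 members had at least 1000 CPM.

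The fall in methanol was unequal between strains, and GS115 departed most from the rest. The median gene was lower in methanol than at 24 h and at 48 h glycerol by 2.27 and 2.00 in X-33, 2.20 and 2.11 in YB-4289, 2.16 and 2.06 in YB-4290, 2.06 and 1.94 in Y-7556, 1.84 and 1.76 in Y-17741, and 1.77 and 1.54 in YB-378. It was lower by 1.75 and 1.27 in Y-12729, 1.38 and 1.04 in Y-48124 and 1.15 and 0.98 in Y-11430. In GS115 the medians were 0.43 and 0.36. The number of genes at least log2 1 lower than at both glycerol time points was 402 in YB-4289, 401 in YB-4290, 391 in X-33, 386 in Y-7556, 340 in YB-378, 318 in Y-17741, 286 in Y-12729, 189 in Y-48124 and 180 in Y-11430. Of all 4961 genes, 6.17% (Y-48124) to 23.9% (YB-4289) passed in these strains. In GS115 it was 25 of the 425 genes, against 1.47% of all 4961 genes. These numbers describe the libraries that chose the genes.

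**Figure D2:**
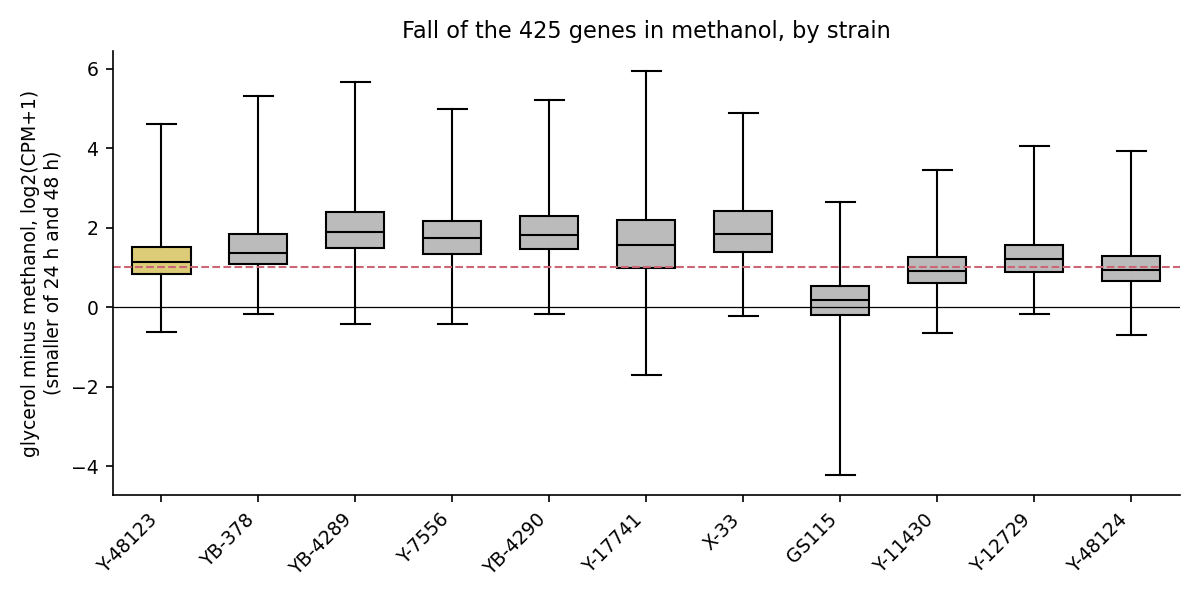
Smaller of the differences 24 h glycerol minus methanol and 48 h glycerol minus methanol, in log2(CPM + 1), for the 425 genes in each strain. Boxes give the median and quartiles and whiskers the lowest and highest gene, Y-48123 (left out of the choice) is in yellow, and the dashed line is at log2 1, which 402 genes reached in YB-4289 and 25 in GS115.

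Methanol was the lowest of the 3 conditions in all 10 strains for 249 genes, in 9 strains for 146 genes and in fewer strains for 30. Counts over several strains were not made for all 4961 genes, and these libraries chose the members. In GS115 methanol was the lowest condition for 264 genes (62.1%), against 21.1% of all 4961 genes, whereas in the other strains of the rule 39.9% to 54.7% of all genes were lowest in methanol. For 135 of the other 161 members GS115 was alone among the 10 strains. Members not lowest in methanol numbered 15 in Y-48124, 13 in Y-11430, 12 in Y-17741 and at most 4 in each of the rest. Past log2 1 in every one of the 10 strains were 14 genes, which were GQ67_03471, GQ67_01111, GQ67_01593, GQ67_01178, GQ67_03651, GQ67_03308, GQ67_00518, GQ67_03499, GQ67_04611, GQ67_00443, GQ67_05212, GQ67_04952, GQ67_00357 and GQ67_01883. Those 14 were singled out after their values were seen, and their falls averaged over strains ran from 1.64 to 3.76.

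In Y-48123, whose libraries had no part in the choice, most of the 425 genes were again lower in methanol. They held 8.36%, 7.85%, 4.23% and 8.22% of the counts in its 4 methanol libraries, against 19.8% to 20.7% in 3 libraries at 24 h and 20.02% in 1 library at 48 h glycerol. In log2(CPM + 1), methanol was the lowest condition for 421 of the 425 genes, against 37.7% of all 4961 genes, and 263 (61.9%) were at least log2 1 below both glycerol conditions, against 7.78% of all 4961 genes. With edgeR (TMM scaling, adjusted p below 0.05 and a fold change of at least log2 1), 244 genes (57.4%) were called lower than at 24 h glycerol and 0 were called higher, while 17.0% of the 5087 genes tested were lower. Against 48 h glycerol 247 genes (58.1%) were lower and 0 were higher, with 9.89% of all genes tested lower. The median log2 fold change of the 425 genes was -1.12 against 24 h and -1.13 against 48 h glycerol, where all genes tested had medians of 0.08 and 0.16. At both comparisons 176 genes were lower, which is 41.4% of the 425 and 75.2% of the 234 genes lower in both (4.6% of all genes tested), and 110 genes were lower in neither. Y-48123 had 1 library at 48 h glycerol, which is assumed to vary like the other groups, and both comparisons share the 4 methanol libraries. Methanol replicate C of Y-48123 is 1 of the 5 libraries that were also left out. Without these 5, 209 of the 425 genes were lower than at 24 h glycerol and 1 was higher. The count against 48 h glycerol also fell. The share of all genes tested was not computed without them. The study set Y-48123 with Y-12729 and Y-48124, so it is a separate set of libraries and not a distant genotype.

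**Figure D3:**
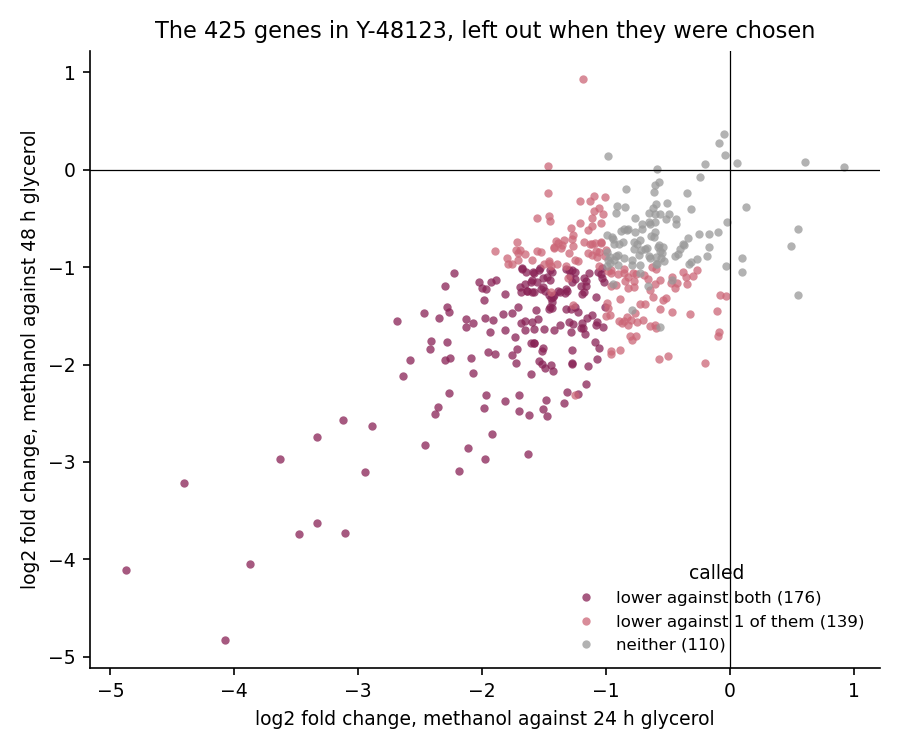
Log2 fold changes (edgeR, TMM scaling) of the 425 genes in Y-48123, in methanol against 24 h glycerol on the horizontal axis and against 48 h glycerol on the vertical axis. Most points lie below 0 on both axes, and 176 genes were called lower in both comparisons, 110 in neither.

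The largest called fall in Y-48123 was that of GQ67_03471. It had 32.4, 28.8, 17.9 and 23.4 CPM in methanol, against 851, 932 and 931 CPM at 24 h and 464 CPM at 48 h glycerol. No methanol library came near a glycerol library. The log2 fold change was -4.87 ± 0.43 (SE) against 24 h glycerol (edgeR adjusted p = 8.05e-16) and -4.11 ± 0.49 (SE) against 48 h glycerol (edgeR adjusted p = 5.16e-10). GQ67_04399, a gene of low level on chromosome 4, had 0, 1.23, 0.37 and 0.64 CPM in methanol, against 15.1, 15.6 and 18.9 CPM at 24 h and 6.26 CPM at 48 h glycerol, and was called lower in both comparisons. GQ67_04563 on chromosome 4 had 17.1, 11.3, 0.73 and 12.5 CPM in methanol, against 235, 178 and 206 CPM at 24 h and 302 CPM at 48 h glycerol, and was also lower in both. Replicate C in methanol was the lowest library for this gene.

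The 5 members with the highest log2 fold changes against 24 h glycerol in Y-48123 had values above 0 in edgeR with TMM scaling. GQ67_00116 on chromosome 2 had 63.1, 75.4, 1.83 and 73.4 CPM in methanol, against 24.9, 35.7 and 34.9 CPM at 24 h and 51.5 CPM at 48 h glycerol. In 3 of the 4 methanol libraries it was thus above every glycerol library, and in replicate C it was far below. The log2 fold change against 24 h glycerol was 0.92 ± 0.61 (SE, edgeR adjusted p = 0.184), and 1.29 without the 5 libraries, of which replicate C is 1, and then passed the test. GQ67_02224 had 517, 435, 50.5 and 433 CPM in methanol, against 300.2, 252 and 255 CPM at 24 h and 336 CPM at 48 h glycerol, and GQ67_02780 had 3514, 2497, 702 and 2989 CPM, against 1837, 2114 and 2031 CPM at 24 h and 4217 CPM at 48 h glycerol. Both had replicate C as the lowest methanol library, and neither passed the test against 24 h glycerol, with log2 fold changes of 0.61 ± 0.47 and 0.50 ± 0.52 (SE), or 0.94 and 0.76 without the 5 libraries. Every methanol library of GQ67_02780 was below the 48 h glycerol library. GQ67_03049 and GQ67_04133 likewise had log2 fold changes of 0.55 against 24 h glycerol that did not pass. In means of log2(CPM + 1), which replicate C enters, GQ67_00116, GQ67_02224 and GQ67_03049 were still lowest in methanol, by 0.02, 0.01 and 0.27.

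Whether the methanol response of these genes differed between strains was tested as an interaction. The response was methanol minus the mean of both glycerol time points, and that of each strain, or of the mean of Cluster 2, was set against the mean of Y-12729 and Y-48124. A negative value means that methanol was lower relative to glycerol than in these reference strains, whether or not the gene fell in them. Methanol levels given alone for a gene below do not show this response, which also depends on each strain's glycerol levels. The 5 comparisons share the reference libraries, and the study had formed its clusters from these same libraries. The strains compared had also taken part in choosing the genes, with 4 of the 10 strains from Cluster 2, so the counts were repeated on lists chosen by the same rule from the strains outside each comparison, an alternative added after the data were seen. In the shares below, the percentages of all 5087 genes tested serve as the background.

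**Figure D4:**
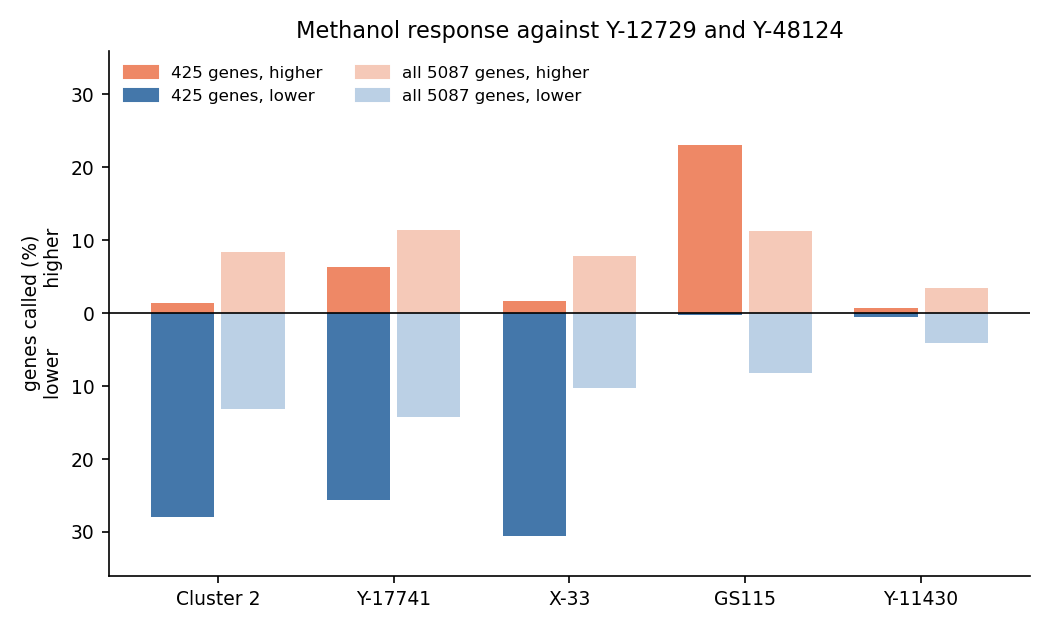
Share of genes called higher (above 0) or lower (below 0) in their methanol response against the mean of Y-12729 and Y-48124, in percent, for the 425 genes (dark bars) and for all 5087 genes tested (light bars). Lower calls exceed the background in Cluster 2, Y-17741 and X-33 at 28.0%, 25.6% and 30.6% of the 425 genes, and higher calls exceed it in GS115 at 23.1%.

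In Cluster 2 the fall was deeper. Of the 425 genes 119 (28.0%) were called lower and 6 (1.41%) higher, against 13.1% and 8.35% of all genes tested, and 358 of 425 had a negative value. The median log2 difference was -0.63, where all genes tested had -0.08. On the list of 374 genes chosen from the 4 strains outside the comparison, 26.5% were lower and 4.01% higher. By level, the median difference from the reference strains was -0.70 in methanol on the log2(CPM + 1) scale, -0.19 at 24 h glycerol and 0.06 at 48 h glycerol. GQ67_01039 on chromosome 2 (1846870 to 1847732, - strand) had the largest difference, -5.87 ± 0.78 (SE, edgeR adjusted p = 2.68e-09), and -6.56 without the 5 libraries. It had 2.97 and 2.20 CPM in methanol in YB-378, 1.24, 0.26 and 4.22 CPM in YB-4289, 0.52, 1.80 and 10.3 CPM in Y-7556 and 1.40, 2.02 and 5.43 CPM in YB-4290, against 264, 4.73 and 172 CPM in Y-12729 and 268, 171 and 3.08 CPM in Y-48124. Replicate B of Y-12729 and replicate C of Y-48124 thus lay at the level of Cluster 2. Without the 5 libraries 178 of the 425 genes were lower and 7 higher, while limma on the deposited log2(TPM + 1) gave 74 lower and 8 higher. The share of all genes called was not computed for these alternatives, so the changed counts cannot be read as a result about the members.

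GQ67_02737 and GQ67_00116 had the next largest negative differences between Cluster 2 and the reference strains. They were -4.59 ± 0.58 and -4.80 ± 0.68 (SE), or -5.34 and -5.42 without the 5 libraries. GQ67_02737 on chromosome 1 (854611 to 855391, + strand) had 49.2, 21.1 and 84.2 CPM in methanol in Y-7556, against 1661, 70.6 and 1640.0 CPM in Y-12729 and 1793, 1447 and 38.7 CPM in Y-48124. The same 2 reference libraries were again low. By median over the reference libraries, neither gene was lowest in methanol there. GQ67_02737 had 1544 CPM in methanol, 1676 CPM at 24 h and 745 CPM at 48 h glycerol. For GQ67_00116 these medians were 57.5, 31.7 and 32.0 CPM. In the opposite direction, GQ67_03194 on chromosome 3 (365768 to 367434, + strand) fell less in Cluster 2, with a difference of 2.56 ± 0.26 (SE, edgeR adjusted p = 1.15e-12), and 3.55 without the 5 libraries. Its methanol levels were 13.1 and 11.8 CPM in YB-378, 16.6, 21.9 and 21.1 CPM in YB-4289, 14.9, 22.9 and 25.5 CPM in Y-7556 and 14.1, 19.2 and 25.8 CPM in YB-4290, against 1.54, 7.23 and 0.85 CPM in Y-12729 and 2.61, 2.97 and 6.17 CPM in Y-48124. Here every Cluster 2 library was above every reference library. The Cluster 2 methanol libraries, at 11.8 to 25.8 CPM, overlapped its libraries at 24 h (22.5 to 36.04 CPM) and 48 h glycerol (12.5 to 24.8 CPM). GQ67_05136 and GQ67_05230, both on chromosome 4, were the other members with the largest higher calls, at 1.70 ± 0.25 and 1.64 ± 0.26 (SE).

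In Y-17741 lower calls were above the background share and higher calls below it. It had 109 genes (25.6%) called lower and 27 (6.35%) higher, against 14.3% and 11.4% of all genes tested, and a median difference of -0.36 where all genes had 0.01. On 473 genes chosen without the strains compared, 22.6% were lower and 6.34% higher. Without the 5 libraries 148 of the 425 genes were lower and 22 higher, with the share of all genes called not computed. GQ67_01089 on chromosome 2 (1936446 to 1937528, + strand) had 856, 2225, 2757 and 2331 CPM in methanol in Y-17741, against 165, 97.0 and 152 CPM in Y-12729 and 169, 152 and 74.7 CPM in Y-48124. The Y-17741 methanol libraries were also above its own glycerol libraries, which had 559 to 597 CPM at 24 h and 591 to 678 CPM at 48 h. The difference in response was 3.75 ± 0.40 (SE, edgeR adjusted p = 6.98e-12). GQ67_00636, also on chromosome 2 (1071692 to 1072930, - strand), had 1641, 1128, 1217 and 1219.9 CPM in methanol in Y-17741, against 14.6, 208 and 14.2 CPM in Y-12729 and 29.0, 66.0 and 291 CPM in Y-48124, with a difference of 2.72 ± 0.57 (SE, edgeR adjusted p = 7.11e-05), and 4.65 without the 5 libraries.

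GQ67_02940 on chromosome 1 kept 24.7, 20.1, 26.1 and 24.8 CPM in methanol in Y-17741, against 4.99, 2.22 and 5.10 CPM in Y-12729 and 4.57, 5.64 and 1.03 CPM in Y-48124. All 4 Y-17741 libraries were above all 6 reference libraries, and the difference was 2.85 ± 0.35 (SE). The largest negative differences in Y-17741 were those of GQ67_03092, GQ67_02737 and GQ67_01228. They were -6.56 ± 1.05, -5.98 ± 0.87 and -5.78 ± 0.78 (SE), or -7.22, -6.73 and -6.41 without the 5 libraries. GQ67_03092 on chromosome 3 had 0.94, 0.26, 3.67 and 1.70 CPM in methanol in Y-17741, against 424, 8.90 and 361 CPM in Y-12729 and 340.2, 277 and 2.06 CPM in Y-48124. GQ67_00483, one of the most abundant members, had 842, 746, 655 and 816 CPM in methanol in Y-17741, against 2893, 5156 and 3060.4 CPM in Y-12729 and 2519, 3351 and 6137 CPM in Y-48124, a difference of -2.71 ± 0.42 (SE, edgeR adjusted p = 2.13e-07).

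In X-33 130 genes (30.6%) were lower and 7 (1.65%) higher, against 10.2% and 7.82% of all genes tested, with a median difference of -0.80 where all genes had -0.12. On 456 genes chosen without the strains compared, 33.1% were lower and 1.10% higher. The number rested on single libraries: 78 genes were called without methanol replicate B of X-33 and 86 without its replicate A. It was 255 (245 lower) without the 5 libraries, and 224 (215 lower) without replicate B of Y-12729 and replicate C of Y-48124 in methanol alone. The share of all genes called was not computed for these alternatives, so the larger counts cannot be read as a stronger result for the members. The members held 3.98% and 3.56% of the counts in X-33 replicates A and B in methanol, against 8.52% in replicate C, which had 70901 counts in all. GQ67_00116 had 0.26, 1.46 and 56.4 CPM in the 3 X-33 methanol libraries, against 73.4, 1.95 and 41.7 CPM in Y-12729 and 79.9, 94.2 and 0.34 CPM in Y-48124, with a difference of -5.68 ± 1.14 (SE, edgeR adjusted p = 1.19e-04), and -7.11 without the 5 libraries. In each strain the library that differed from the other two was one that stood apart. Among the higher calls, GQ67_05136 had 208, 141 and 42.3 CPM in methanol in X-33, against 18.4, 52.0 and 19.3 CPM in Y-12729 and 32.6, 49.9 and 30.5 CPM in Y-48124, a difference of 2.96 ± 0.34 (SE, edgeR adjusted p = 5.96e-10). GQ67_01089 and GQ67_01869 were also higher, by 2.32 ± 0.40 and 1.60 ± 0.41 (SE), and GQ67_01414 and GQ67_02824 were lower, by -3.62 ± 0.93 and -3.13 ± 0.58 (SE).

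GS115 differed the other way, with a shallower fall. There 98 genes (23.1%) were called higher and 1 (0.235%) lower, against 11.3% and 8.24% of all genes tested, and 374 of 425 had a positive value. The median difference was 0.60, where all genes tested had 0.10. On 588 genes chosen without GS115 and the reference strains, 20.9% were higher and 0 genes were lower. Without the 5 libraries 79 of the 425 genes were higher and 0 lower. Both sides of the response differed in level: the median difference from the reference strains was 0.51 in methanol on the log2(CPM + 1) scale, -0.60 at 24 h glycerol and -0.22 at 48 h glycerol. For the other genes of the 4961 these medians were 0.21 in methanol, -0.18 at 24 h and -0.11 at 48 h glycerol. Scaling to library totals gave 189 genes higher and 0 lower, and limma on the deposited log2(TPM + 1) gave 302 higher and 0 lower. The share of all genes called was not computed for these alternatives. The larger counts therefore cannot be read as a stronger result for the members. Of the 98 genes, 64 were not lowest in methanol in GS115.

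The largest difference in GS115 was that of GQ67_04563 (chromosome 4, 520465 to 523000, - strand), 6.67 ± 0.69 (SE, edgeR adjusted p = 2.62e-11). It had 638, 719 and 61.6 CPM in methanol in GS115, which was above the 10.2, 13.9 and 25.0 CPM of its own 24 h glycerol libraries in every library. At 48 h glycerol GS115 had 146 and 103 CPM, so replicate C in methanol was below these. In methanol Y-12729 had 28.0, 3.06 and 18.1 CPM and Y-48124 had 13.1, 4.75 and 2.74 CPM of it. GQ67_04858 on chromosome 4 had 721, 761 and 327 CPM in methanol in GS115, against 24.5 to 53.4 CPM over the 6 libraries of Y-12729 and Y-48124. All GS115 methanol libraries were far above all reference methanol libraries. The difference in response was 2.58 ± 0.27 (SE, edgeR adjusted p = 3.51e-11). It is relative to each strain's own glycerol levels, which are not given here for this gene. GQ67_04399 was higher by 2.96 ± 0.57 (SE) at levels of 3.35 to 5.25 CPM in methanol in GS115. The single lower call was GQ67_03194, at -1.17 ± 0.42 (SE, edgeR adjusted p = 0.0255), which was lost without the 5 libraries (-0.16).

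**Figure D5:**
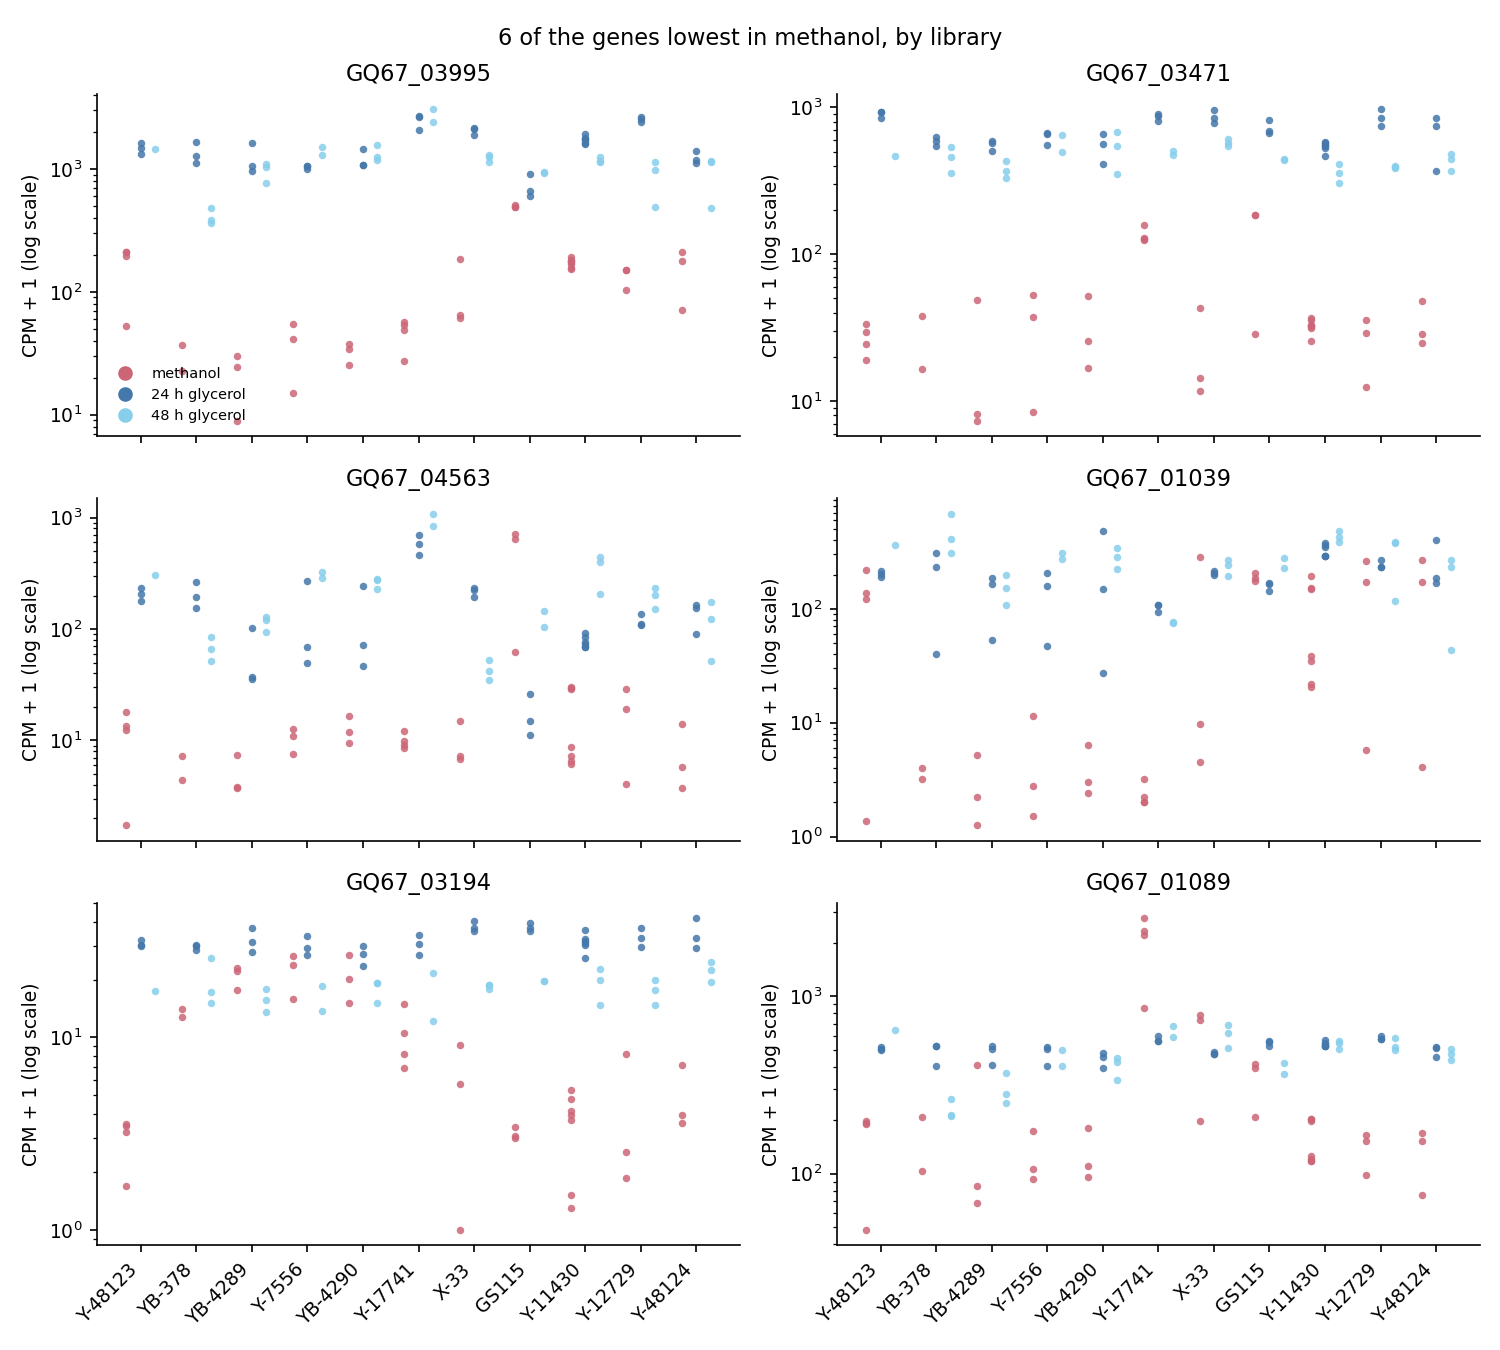
CPM + 1 on a log axis of 6 of the 425 genes in every library, by strain, with colours for methanol, 24 h glycerol and 48 h glycerol. GQ67_03995 and GQ67_03471 are lowest in methanol in every strain, while the methanol level of GQ67_04563 is raised in GS115 (638, 719 and 61.6 CPM), that of GQ67_03194 in Cluster 2 and that of GQ67_01089 in Y-17741, and GQ67_01039 shows 1 low methanol library each in Y-12729, Y-48124 and Y-48123.

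Y-11430 differed little from the reference strains in these genes. There were 3 genes called higher and 2 called lower, against 3.44% and 4.11% of all genes tested, and the median difference was 0.19, where all genes had 0.03. On 515 genes chosen without the strains compared, 4 were higher and 2 were lower. The higher genes were GQ67_00196, GQ67_04966 and GQ67_04575, and the lower ones were GQ67_00636 and GQ67_04133. Without the 5 libraries GQ67_04575 lost its call (0.90), while GQ67_00196, GQ67_04966 and GQ67_04133 kept theirs at 1.01, 1.67 and -1.54. Without replicate A of both reference strains at 48 h glycerol, GQ67_04966 (0.70) and GQ67_04575 (0.94) lost their calls and the others kept them. GQ67_00196 on chromosome 2 had 3.62 to 10.4 CPM in the 7 methanol libraries of Y-11430 (median 6.57 CPM), against 4.99, 1.11 and 4.53 CPM in Y-12729 and 2.94, 5.35 and 2.40 CPM in Y-48124, with a difference of 1.37 ± 0.33 (SE, edgeR adjusted p = 0.00174). The call of GQ67_00636, -1.84 ± 0.49 (SE, edgeR adjusted p = 0.00511), rested on replicate B of Y-12729 and replicate C of Y-48124 in methanol, as the difference was 0.12 without these 2 alone and 0.10 without the 5 libraries. Leaving out replicate A of Y-12729 at 48 h glycerol, or replicate B of Y-48124 at 24 h glycerol, gave 3 calls in place of 5. Y-7556 was also set against YB-4290, whose genome the study found to be identical. There 0 of the 425 genes and 0.0% of all genes tested were called by edgeR, 5 members and 42 genes in all had an unadjusted p below 0.05, and DESeq2 and limma called 0 members. In none of the 5 comparisons with the reference strains were 131 of the 425 genes called.

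In position and structure the 425 genes were close to the rest. They had 1 exon in 401 cases (94.4%, against 95.3% of all 4961 genes), 2 exons in 20 and 3 or more in 4. The median coding length was 1224 bp against 1218 bp, and 199 genes (46.8%, against 50.8%) lay on the plus strand. Chromosome 1 held 31.5% of them (against 30.8% of all 4961 genes), chromosome 2 held 27.1% (against 25.5%) and chromosome 4 held 21.4% (against 19.5%). Chromosome 3 held a smaller share, 85 of them (20%) against 1199 of the 4961 (24.2%). Their mean level over the 3 conditions was higher, with a median of 69.2 TPM against 44.9 TPM. A gene next to a member was itself a member for 93 of them (21.9%), while 16.2% of all 4961 genes had a member as neighbour. Head-to-head pairs, which are neighbours transcribed away from each other, held 226 members (53.2%, against 57.2% of all 4961 genes).

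Neighbouring members formed 34 runs of 2, 5 runs of 3, 1 run of 4 and 1 run of 6 genes. The longest ran from GQ67_00115 to GQ67_00120 on chromosome 2 at 163701 to 178306. Its genes lie on both strands, and whether counting used strand is not stated, so reads in any overlap could not be assigned by strand. GQ67_00118 had the deepest mean fall after GQ67_00116, by 1.69, with 39.8 to 240 CPM in methanol (median 120.2 CPM), against 124 to 595 CPM at 24 h and 154 to 535 CPM at 48 h glycerol. Its methanol and glycerol libraries overlapped. GQ67_00117, GQ67_00119 and GQ67_00120 had falls of 1.31, 1.49 and 1.19, and GQ67_00115, at a mean of 2.86 CPM in methanol, had 1.22. The run was not uniform between strains. In Cluster 2 GQ67_00115, GQ67_00116, GQ67_00119 and GQ67_00120 were called lower, and GQ67_00117 and GQ67_00118 had differences of -0.70 and -0.69, short of the fold minimum.

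At the edge of the rule, the members with the smallest falls were GQ67_03727, GQ67_02592 and GQ67_02306, each with a smaller difference of 1.00. The genes just outside were GQ67_03071, GQ67_02084 and GQ67_02795, with 0.998, 0.998 and 0.997, so the boundary does not separate distinct groups. With no limit on the distance from contig ends, 431 genes met the conditions on level.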

How the data were processed

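Bulk RNA was sequenced as short paired-end reads. Per the labels and the study's methods the authors aligned reads with STAR 2.5.3a and quantified genes with RSEM 1.3.0 against their annotated Y-11430 assembly. The methods call the aligned reads single-end. The deposited expected counts (estimated reads per gene, not normalized) were whole numbers in 100% of values, within a tolerance of 1e-09, and were used without rounding. The authors also deposited log2(TPM + 1) values, which adjust for gene length and for the library total and were used for levels per length and as an alternative. Groups came from the sample titles. Coordinates came from the deposited annotation of 5167 genes.

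The members, lists and tests were chosen with earlier results of these data known. Genes were chosen from log2(CPM + 1), with a pseudocount of 1 CPM and library totals as denominators. The main test was edgeR 4.0.16 in R 4.3.3: TMM scaling, filterByExpr over 33 groups of strain and condition, 1 mean per group over all libraries, a robust quasi-likelihood fit and two-sided F tests with Benjamini-Hochberg adjustment over 5087 genes. All 425 members passed the filter on low counts. A gene was called if its adjusted p was below 0.05 and its log2 fold change reached 1 in size, and SE is the log2 fold change over the root of F. The common biological coefficient of variation was 0.238. Counts were simulated from the real library totals and mean gene shares, with 200 of 5087 genes changed per comparison. The Y-48123 comparison with 24 h glycerol recovered 93 of 100 changes of log2 1.5 and 99 of 100 of log2 2. It made 2 false calls. The X-33 comparison recovered 84 and 95 of 100, with 9 false calls. Every simulated gene had the same dispersion and no library stood apart, so these rates may be better than in the data. Alternatives were RLE factors, library totals, no filter, DESeq2 1.42.0, limma 3.58.1 on log2(TPM + 1), other fold minimums, a replicate block and left-out libraries.

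Named genes were, by rule, the 10 members with the largest smaller fall, the 5 most abundant, up to 3 called higher and 3 called lower in each strain comparison, the 3 largest falls and 5 smallest falls or rises in Y-48123, the longest run, and the 3 genes on each side of the rule's edge.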

Additional observations from a re-analysis of the deposited data

Results flagged for a closer look

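The members' methanol response differed between strains by the edgeR interaction test for 125 genes in Cluster 2, 136 in Y-17741, 137 in X-33, 99 in GS115 and 5 in Y-11430, each against the mean of Y-12729 and Y-48124. These are 29.4%, 32.0%, 32.2%, 23.3% and 1.18% of the members, against 21.4%, 25.8%, 18.1%, 19.5% and 7.55% of all genes tested, in the same order of strains. The counts share the reference libraries. In these counts the members were mostly lower in Cluster 2, Y-17741 and X-33 and mostly higher in GS115.

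In 8 checks for a library far from the others of its group, 3 values stood out, where chance gives about 1 in 20. The members' share of counts was 4.23% in methanol replicate C of Y-48123, against 7.85% to 8.36% in the other methanol libraries of that strain, and the median member level was 4.45 in log2(CPM + 1) in the same library. The share was 19.9% in replicate B of Y-11430 at 24 h glycerol, the lowest of 6 libraries whose highest was 21.2%.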

How the results depend on the processing

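Without a fold minimum the members called were 276 in Cluster 2, 211 in Y-17741, 227 in X-33, 188 in GS115 and 38 in Y-11430, and with a minimum of log2 2 they were 24, 53, 21, 15 and 0, with 39 and 42 lower in Y-48123 against 24 h and 48 h glycerol. GS115 had 189 calls with library totals and 302 with limma on log2(TPM + 1), and Cluster 2 had 82 with limma. Shares over all genes tested were not computed for the alternatives in this section. Without the 5 libraries named in the report X-33 had 255 and Y-11430 had 9. In alternatives added after the data were seen, leaving out the 4 methanol libraries of these gave 250 and 8, leaving out replicate B of Y-12729 and replicate C of Y-48124 in methanol gave 224 in X-33, and leaving out replicate A of both reference strains at 48 h glycerol gave 3 in Y-11430. Leaving out each library in turn gave 217 to 284 and 216 to 279 genes lower in Y-48123 against 24 h and 48 h glycerol, 101 to 144 calls in Cluster 2, 126 to 151 in Y-17741, 78 to 186 in X-33, 77 to 120 in GS115, 3 to 7 in Y-11430 and 0 to 0 between Y-7556 and YB-4290. GQ67_00636 in Y-11430 turned to 0.097 without the 5 libraries, 0.138 without the 4 and 0.124 without the 2. Among the other values for named genes under these alternatives, 1240 kept the call or its absence, 41 lost the call and 2 gained it. The cause of these changes was not tested.

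The rule gave 279 genes with TMM-scaled CPM (260 of them among the 425), 464 with log2(TPM + 1) and 168 with a minimum of log2 1.5.

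With the replicate letter as a replicate block, Y-11430 had 3 calls in place of 5, and the other counts stayed within 1.5 times, with 244 and 256 lower in Y-48123, 122 in Cluster 2, 134 in Y-17741, 139 in X-33 and 99 in GS115. Of 83 pairs of same-lettered libraries of a strain in different conditions, 16 had a correlation of deviations over 0.1 (median -0.015). These are deviations from the means of small groups, so the check cannot exclude that a letter marks the same culture.

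Depth limits the smallest library, X-33 methanol replicate C with 70901 counts. Genes with near-identical copies could not be identified, since only identifiers are given, and their counts are uncertain.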
